A study of Mus musculus with 8 samples.

Results

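The NF-kB subunits and their inhibitors are 10 genes of the deposited count table, found by symbol. They are the 5 subunits Nfkb1, Nfkb2, Rela, Relb and Rel, the 3 classical IkB inhibitors Nfkbia, Nfkbib and Nfkbie, the nuclear IkB protein gene Nfkbiz, and Tnfaip3, which encodes the ubiquitin-editing enzyme A20. All 10 were among the 55376 genes of the table and among the 14382 with enough counts to be tested. The samples were cultured mouse dendritic cells grown from bone marrow and exposed overnight to heat-inactivated bacteria, either Prevotella heparinolytica (PH, 3 samples) or Prevotella melaninogenica (PM, 3 samples). The sources used here do not give mouse strain, age or sex. No unstimulated cells enter the comparison, so each difference sets one bacterium against the other. Samples carry the ids 1, 3 and 4 in each treatment and are called replicates 1, 3 and 4. The labels do not say whether an id is an animal or a culture, so p-values measure only the spread between these samples, which may be technical.

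NF-kB is a family of dimeric transcription factors that lies downstream of Toll-like receptors, the sensors of bacterial products on dendritic cells. At rest the classical IkB proteins hold the dimers in the cytoplasm. After a stimulus the IkB kinase marks IkB for destruction, the dimers enter the nucleus, and among the genes they induce are those of their own inhibitors, so that the response carries its own brake. Rela and Rel pair mostly with the p50 product of Nfkb1 (the canonical branch), while Relb pairs with the p52 product of Nfkb2 (the noncanonical branch, which matures dendritic cells).

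The 6 samples held between 11624367 counts (PH replicate 3) and 40233148 (PH replicate 4), and each member had between 1543 and 33171 counts per sample. PH replicate 3 was the shallowest sample and also had the highest level of the predicted gene Gm42418. Markers of conventional dendritic cells were present at a summed level of 5855 to 7216 CPM (counts scaled to each sample's TMM-adjusted library size) with PH and 5834 to 6916 CPM with PM, and 0 of the 10 passed the test, while in the fit that pairs samples by id (below, the block) Irf4 and Ciita fell. Of 51 tested markers of this and 8 other cell types, 4 fell with PM and 1 rose, and with the block 13 fell and 2 rose. Over all tested genes 1.64% fell and 0.702% rose, and with the block 8.27% fell and 7.00% rose. The markers that fell without the block were the G-CSF receptor gene Csf3r, the interferon-inducible surface gene Bst2, the cytotoxic protease gene Gzmb and the stromal receptor gene Pdgfrb. The summed level of the 5 NK cell markers was 19.8 to 26.2 CPM with PH and 12.5 to 17.8 CPM with PM, and that of the 5 plasmacytoid markers 350.3 to 368 CPM and 247 to 271 CPM. Such sums follow the most abundant markers. Without the block 1 of 3 tested NK cell markers and 1 of 4 tested plasmacytoid markers fell. Their log2 fold changes ran from -0.85 to 0.05 and from -0.59 to 0.01. Neutrophil markers summed to 434 to 531 CPM with PH and 321 to 446 CPM with PM, monocyte markers to 235 to 331 and 187 to 255 CPM, and macrophage markers to 1070 to 1532 and 1218 to 1704 CPM. No marker was at 0 in every sample, and C1qa, C1qb, Ly6g, Retnlg, Siglech, Ncr1 and Klrb1c stayed under 1 CPM. The part of other cell types in the results below was not tested, and in bulk RNA fewer cells of a type and less RNA per cell cannot be told apart.

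Upstream sequence is shown because NF-kB induces several of its own genes. RefSeq promoter windows (GRCm38.p6, 250 bases before to 50 after each gene start) matched 7 of the 10 members by symbol, in 10 windows. They were searched on both strands for the NF-kB consensus, a run of 3 G, a purine, 2 bases of any kind, 2 pyrimidines and 2 C. Capitals mark each match, and overlapping matches run together. The first 2 sequences are the 250 bases before the start of Nfkbia (chr12:55492648-55492897, minus strand) and Tnfaip3 (chr10:19015411-19015660, minus strand), which were lower with PM.
Nfkbia: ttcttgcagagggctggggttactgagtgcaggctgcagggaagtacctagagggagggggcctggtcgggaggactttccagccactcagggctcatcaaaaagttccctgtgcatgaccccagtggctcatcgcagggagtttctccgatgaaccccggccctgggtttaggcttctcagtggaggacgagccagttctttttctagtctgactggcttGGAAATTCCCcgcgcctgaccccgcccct
Tnfaip3: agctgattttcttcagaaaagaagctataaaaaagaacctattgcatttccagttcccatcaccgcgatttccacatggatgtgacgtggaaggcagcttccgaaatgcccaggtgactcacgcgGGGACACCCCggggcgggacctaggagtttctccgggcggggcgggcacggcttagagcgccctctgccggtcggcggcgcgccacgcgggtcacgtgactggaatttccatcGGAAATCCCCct

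The next 4 are 60-base stretches with matches upstream of members that did not pass the main test, Nfkb2 (first of its 3 windows, the other windows holding further matches that are not shown; chr19:46304677-46304736, plus strand), Rel (chr11:23771027-23771086, minus strand) and Nfkbie (chr17:45555569-45555628, plus strand), and of Tnip3 (chr6:65590319-65590378, plus strand), a partner of A20 that was lower with PM.
Nfkb2: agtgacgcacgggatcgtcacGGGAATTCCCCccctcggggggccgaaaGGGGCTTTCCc
Rel: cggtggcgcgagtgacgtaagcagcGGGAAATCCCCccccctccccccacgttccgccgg
Nfkbie: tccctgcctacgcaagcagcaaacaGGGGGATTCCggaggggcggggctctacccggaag
Tnip3: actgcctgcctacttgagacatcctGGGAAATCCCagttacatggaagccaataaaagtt

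The match in Nfkbia began 29 bases before the start, and those in the first Tnfaip3 window began 125 and 12 bases before it. The second Tnfaip3 window held no match. Of the 7 members with a window, 5 held a match (Nfkb2, Rel, Nfkbia, Nfkbie and Tnfaip3), and the windows of Rela and Nfkbib did not hold these letters. Nfkb1, Relb and Nfkbiz had no window. Among the other pathway regulators taken up below, 10 of 35 with a window held a match. The window of N4bp1, a regulator that was also lower with PM, held none. The Tnip3 window lies inside the gene as deposited, which begins at 65525313. All 3 Nfkb2 windows likewise lie inside the deposited Nfkb2 gene, which begins at 46304320. Among all 27025 genes with a window of this length, 9.55% held a match in at least 1 window. Matches were thus found both in members that were lower with PM and in members that did not pass, and a match is a description of these letters only.

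Tnfaip3, Nfkbia and Nfkbiz were lower with PM, and 0 of the 5 subunit genes passed the test. Of the 10 members, 3 fell and 0 rose at the 0.05 threshold (edgeR quasi-likelihood F test, p adjusted over all 14382 genes by Benjamini-Hochberg). Of all tested genes 2.34% passed, 1.64% falling and 0.702% rising. When any single sample other than PM replicate 1 was left out of this unpaired fit, 1 member passed, Tnfaip3. The median log2 fold change was -0.07 over the 10 members and 0.01 over all tested genes. The same 3 genes were those whose PH and PM samples did not overlap, a pattern shown by 9.28% of all tested genes in this direction and by 10.1% in the other. A second fit took the sample id as a block that pairs each PM sample with the PH sample of the same id, and in it 4 members fell and 0 rose, where 15.3% of all genes passed, 8.27% falling and 7.00% rising. Nfkb2 was the gene added.

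**Figure D1:**
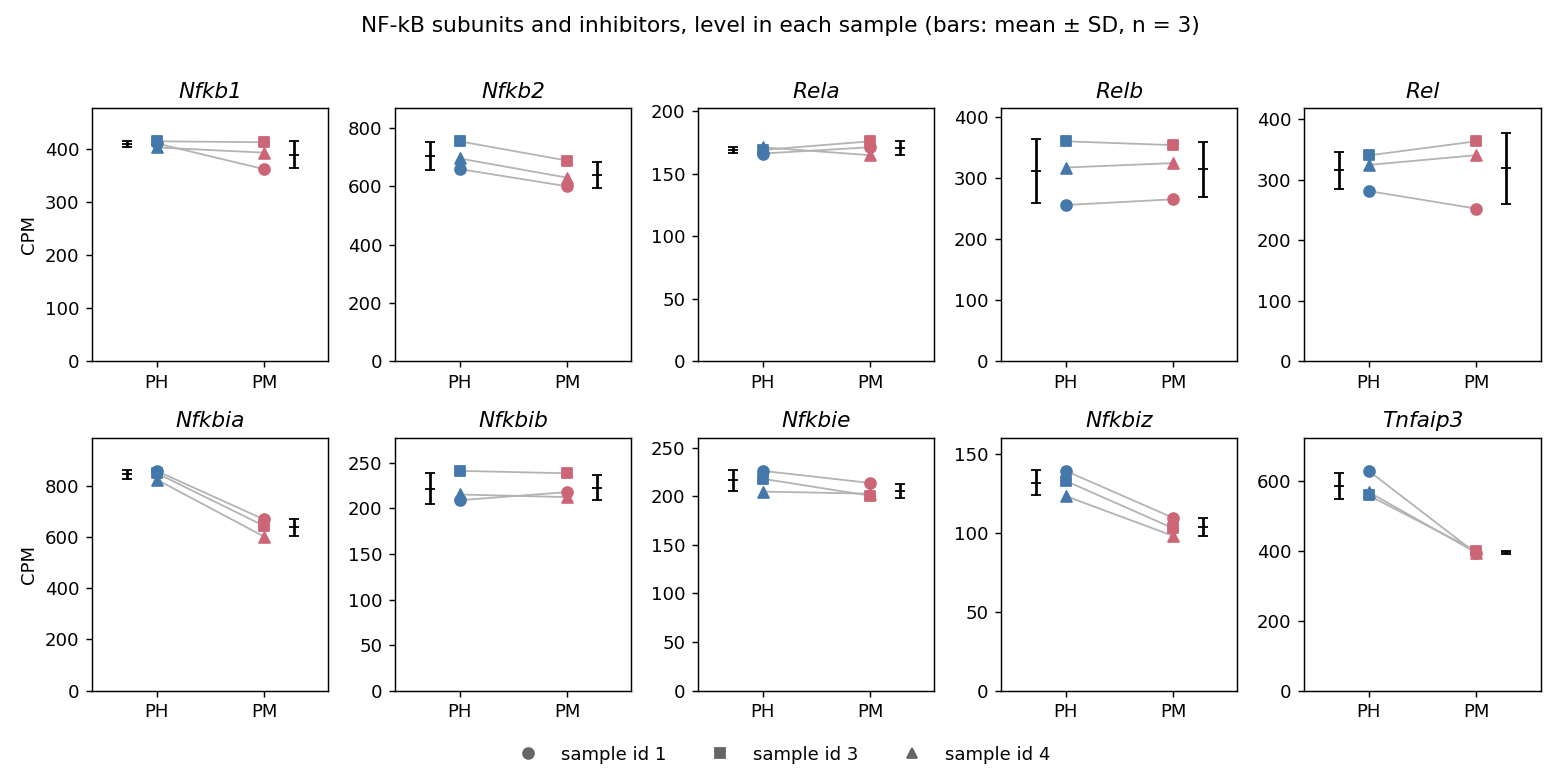
Level of each of the 10 genes in CPM (vertical axes, from 0) in the PH and PM samples. Symbols give the sample id, grey lines join samples of the same id, and black bars give the mean ± SD of 3 samples. In Nfkbia, Nfkbiz and Tnfaip3 every PM point lies under every PH point, and in the other 7 genes the treatments overlap.

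Tnfaip3 (chromosome 10, 19000910 to 19015410, minus strand) encodes A20, which removes activating ubiquitin chains from the signalling proteins upstream of the IkB kinase. It was at 628, 558 and 568 CPM in PH replicates 1, 3 and 4 and at 392, 399 and 395 CPM in PM replicates 1, 3 and 4. The 3 PM samples lay close together and all were lower than the lowest PH sample. Mean levels were 585 ± 38.0 CPM for PH and 395 ± 3.54 CPM for PM (SD, n = 3), and the log2 ratio of PM to PH was -0.56 ± 0.07 (SE, edgeR adjusted p = 0.00444). This was the largest change of the 10 genes, a level 32.4% lower with PM. Its call held in each of the 18 alternative analyses, where the highest adjusted p was 0.0342.

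Nfkbia (chromosome 12, 55489410 to 55492647, minus strand) encodes IkB-alpha, the inhibitor that is broken down and made again within the early response. It was at 859, 850.4 and 825 CPM in PH replicates 1, 3 and 4 and at 669, 644 and 602 CPM in the PM replicates of the same ids. Within each treatment the samples stood in the same order, and the treatments did not overlap. Mean levels were 845 ± 17.5 CPM for PH and 639 ± 33.8 CPM for PM, and the log2 ratio was -0.40 ± 0.07 (SE, edgeR adjusted p = 0.0206), a level 24.4% lower. In fits without the block, the call was lost on leaving out any one sample except PM replicate 1 (adjusted p 0.0594 to 0.126), at log2 ratios of -0.36 to -0.42. With the block Nfkbia passed (edgeR adjusted p = 4.8e-08), and also without id 1, 3 or 4 (8.7e-17, 4.4e-06 and 9.4e-08).

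Nfkbiz (chromosome 16, 55811375 to 55838899, minus strand) encodes IkB-zeta, an IkB relative that acts in the nucleus. It is grouped here with the inhibitors by structure, but it is known mainly as a co-activator that NF-kB p50 needs at secondary response genes such as Il6. Nfkbiz was at 139.6, 133 and 124 CPM in PH replicates 1, 3 and 4 and at 109.8, 103 and 98.3 CPM in the PM replicates. As in Nfkbia, replicate 1 was highest and replicate 4 lowest in both treatments, with no overlap between them. Mean levels were 132 ± 8.05 CPM for PH and 104 ± 5.77 CPM for PM, and the log2 ratio was -0.35 ± 0.07 (SE, edgeR adjusted p = 0.0385), a level 21.5% lower. This call was lost in the same 5 cases (adjusted p 0.0814 to 0.190). With the block Nfkbiz passed (edgeR adjusted p = 1.5e-06), and also without id 1, 3 or 4 (1.5e-11, 1.6e-04 and 1.3e-05).

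The other classical IkB genes did not pass in either fit. Nfkbib, for IkB-beta, whose loss after a stimulus is slower, was at 209, 241 and 215 CPM in PH replicates 1, 3 and 4 and at 218, 239 and 212 CPM with PM. These values overlapped, and the log2 fold change was 0.01 ± 0.08 (SE, 95% interval -0.17 to 0.18). The exons of Nfkbib share 14.8% of their length with Ccer2, so some of its counts may belong to that gene. Nfkbie, for IkB-epsilon, which restrains Rela and Rel dimers, was at 226, 218 and 205 CPM with PH and at 214, 201 and 203 CPM with PM. It was lower with PM in 3 of 3 pairs, as were 22.0% of all tested genes (23.8% were higher in all pairs), at a log2 fold change of -0.07 ± 0.06 (SE, 95% interval -0.22 to 0.07). Within the classical IkB genes, Nfkbia made up 73.5 ± 0.746% of their summed length-scaled level with PH and 68.1 ± 0.803% with PM.

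Rela encodes the transactivating subunit p65, and its 6 samples spanned a narrow range. Rela was at 166, 169 and 171 CPM in PH replicates 1, 3 and 4 and at 171, 176 and 165 CPM with PM, with a log2 fold change of 0.02 ± 0.06 (SE, 95% interval -0.11 to 0.15). Nfkb1, for p50 and its precursor p105, was at 410, 414 and 402 CPM with PH and at 361, 412 and 393 CPM with PM. Its treatments overlapped, and PM replicate 1 was the lowest of the 6 samples. The log2 fold change of Nfkb1 was -0.07 ± 0.07 (SE, 95% interval -0.23 to 0.09).

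Relb and Rel did not pass in either fit, and their levels followed the sample id. Relb was at 256, 360.2 and 317 CPM in PH replicates 1, 3 and 4 and at 265, 354 and 324 CPM in the PM replicates. Rel, for c-Rel, which dendritic cells need for interleukin-12 and interleukin-23 production, was at 281, 340.2 and 324 CPM with PH and at 252, 364 and 340.5 CPM with PM. In both genes replicate 1 was the lowest sample of each treatment and replicate 3 the highest. The PM over PH ratio of Relb within ids 1, 3 and 4 was 1.04, 0.983 and 1.02, and that of Rel 0.897, 1.07 and 1.05. The log2 fold changes were 0.02 ± 0.14 (SE, 95% interval -0.30 to 0.33) for Relb and 0.02 ± 0.13 (-0.29 to 0.32) for Rel. Without pairing, differences across these intervals are compatible with the counts. With the block the values were 0.02 ± 0.05 for Relb and 0.0039 ± 0.05 for Rel, and neither passed (adjusted p = 0.837 and 0.973 by edgeR). Without the 2 columns that match 2 runs, PM replicate 1 and PH replicate 3, the unpaired log2 ratios were 0.23 for Relb and 0.21 for Rel (adjusted p = 0.292 and 0.235). Those ratios set PH replicates 1 and 4 against PM replicates 3 and 4, which mixes treatment with id.

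Nfkb2, for p52 and its precursor p100, which can itself hold Rel dimers in the cytoplasm, was the member whose call differed between the fits. It was at 659, 754 and 696 CPM in PH replicates 1, 3 and 4 and at 600, 688 and 630 CPM in the PM replicates. The treatments overlapped, but within each id the PM sample was lower by a like amount, with PM over PH ratios of 0.910, 0.912 and 0.905. The log2 ratio was -0.14 ± 0.08 (SE, edgeR adjusted p = 0.543) without the block and -0.14 ± 0.05 (adjusted p = 0.0385) with it. The paired call was lost without id 3 (adjusted p = 0.171) or id 4 (0.193). Without the 2 columns that match 2 runs the unpaired log2 ratio was -0.05. That ratio sets PH replicates 1 and 4 against PM replicates 3 and 4, which mixes treatment with id. Exons of Nfkb2 share 19.7% of their length with 4833438C02Rik and Psd, and without a known strand setting some of its counts may belong to those genes.

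**Figure D2:**
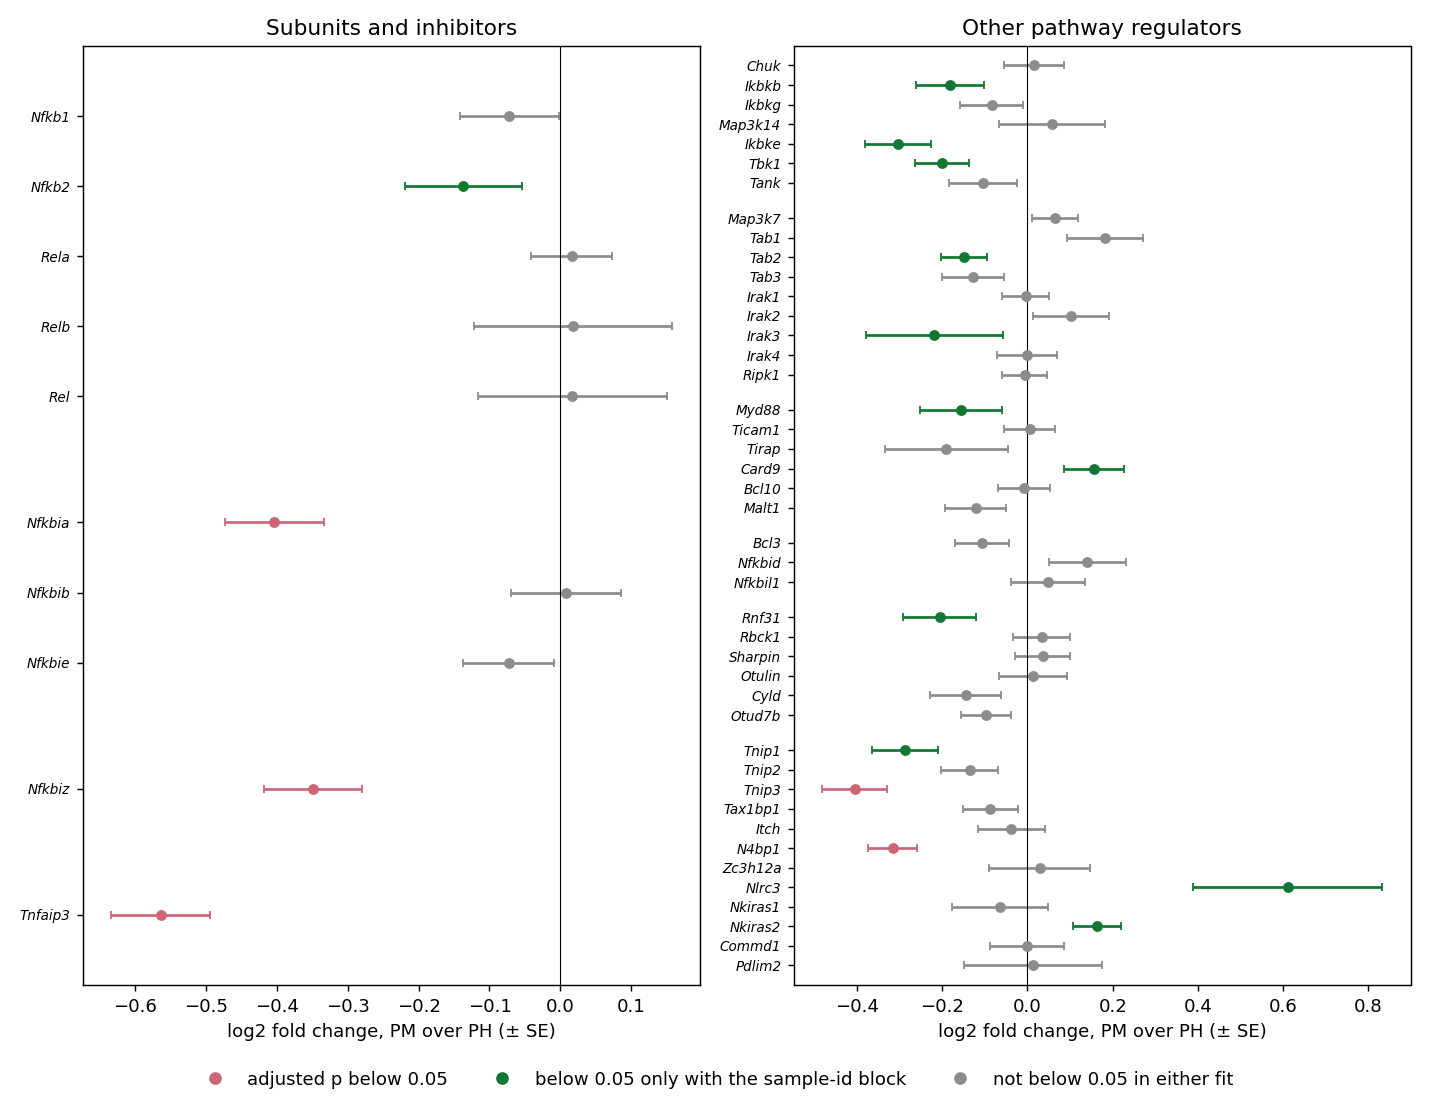
Log2 fold change of PM over PH with its SE (horizontal axes) for the 10 members (left) and 43 other genes of the pathway (right), grouped by role, from the fit without a block. Red points passed an adjusted p of 0.05, green points did so only in the fit with the sample-id block, and grey points in neither. Tnfaip3, Nfkbia and Nfkbiz are red on the left, and Tnip3 and N4bp1 are red on the right.

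Levels of different genes are compared as TPM, a level scaled by exon length and library total, computed from the counts and the exon lengths in the table. With PH, Nfkbia had the highest level of the members at 1179 ± 7.39 TPM, and Nfkb2 came next at 367 ± 25.6 TPM. Relb followed at 310 ± 53.2 TPM, Tnfaip3 at 280.0 ± 16.2, Nfkbib at 230 ± 17.3, Nfkb1 at 218 ± 1.61 and Nfkbie at 195 ± 6.99 TPM. The lowest levels were those of Rela at 137 ± 3.95 TPM, Rel at 93.0 ± 9.59 and Nfkbiz at 70.3 ± 3.30 TPM. Neighbours in this order whose samples overlapped were Nfkb2 with Relb, Relb with Tnfaip3, and Nfkbib with Nfkb1. With PM, Nfkbia was again highest at 890.1 ± 32.3 TPM and Nfkbiz lowest at 55.1 ± 1.94 TPM. Tnfaip3 had rank 4 with PH and rank 6 with PM, at 189 ± 5.41 TPM, where its samples overlapped those of Nfkb1 above and of Nfkbie below.

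**Figure D3:**
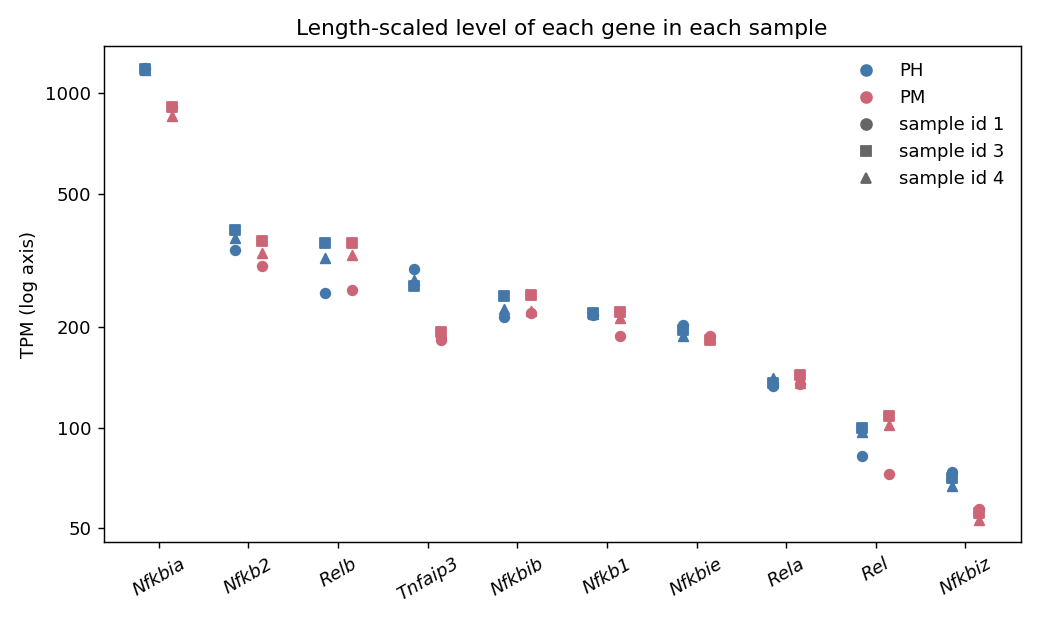
TPM of each member in each sample (log axis), with genes ordered by their mean over the 6 samples, PH in blue, PM in red and symbols for the sample id. Nfkbia stands above all other members in every sample, and Relb and Rel spread by sample id in both treatments.

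Ratios taken within a sample do not depend on its depth. Nfkbia per Rela was 8.91, 8.67 and 8.31 in PH replicates 1, 3 and 4 and 6.73, 6.31 and 6.29 with PM, as a ratio of TPM. Tnfaip3 per Rela was 2.24, 1.95 and 1.96 with PH and 1.36, 1.34 and 1.42 with PM. The 3 classical IkB genes together, per sum of Rela and Rel, gave 7.45, 6.88 and 6.66 with PH and 6.35, 5.31 and 5.32 with PM. In each of these ratios every PM sample was under every PH sample. In contrast, Relb per Rela was 2.26 ± 0.364 with PH and 2.27 ± 0.314 with PM, and Rel per Rela 0.680 ± 0.0589 and 0.680 ± 0.125, with overlapping samples. The 5 subunits together amounted to 1124 ± 91.9 TPM with PH and 1087 ± 119 TPM with PM, and the 3 classical IkB genes to 1604 ± 19.0 and 1306 ± 40.2 TPM. These ratios were not tested. Nfkbia and Tnfaip3 already did not overlap between treatments, and Rela differed little, so their ratios to Rela restate those results. The sum of the IkB genes is mostly Nfkbia (73.5% with PH and 68.1% with PM). Nfkbib and Nfkbie passed in neither fit, so the lower sum does not describe each IkB gene.

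**Figure D4:**
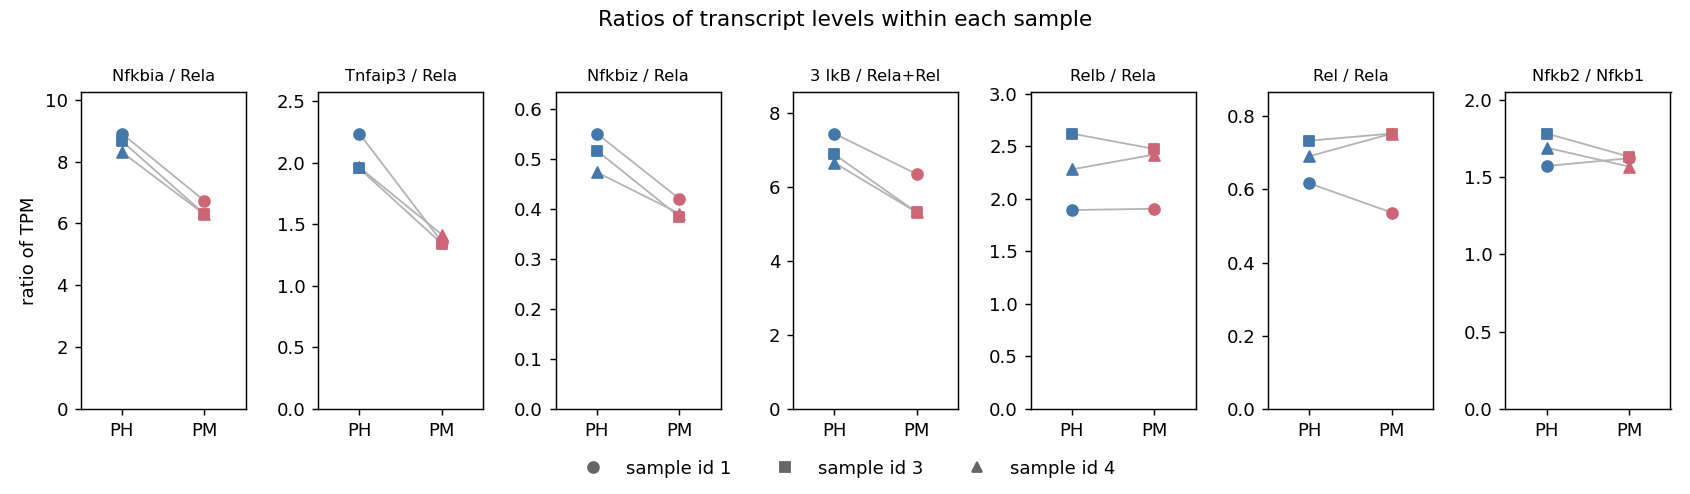
Ratio of TPM within each sample (vertical axes, from 0) for the 3 members that fell per Rela, the summed classical IkB genes per Rela plus Rel, and 3 ratios between subunits. The left 4 panels show PM samples under all PH samples, and the right 3 panels show overlap.

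Across the 6 samples the 3 genes that fell also varied together, with Pearson correlations of log2 CPM of 0.98 for Nfkbia and Nfkbiz, 0.96 for Nfkbia and Tnfaip3 and 0.95 for Nfkbiz and Tnfaip3. Relb and Rel had a correlation of 0.92, and Nfkb1 and Nfkb2 one of 0.82. These values describe 6 samples that share 3 ids and 2 treatments, so a common treatment difference or id difference enters each of them. Among all tested genes, the 3 most like Nfkbia were Slc22a21 (0.998), the tetraspanin gene Cd82 (0.997) and Cybc1 (0.996). Those most like Nfkbiz were Rab32 (0.998), Gm16617 (0.992) and the proteasome subunit gene Psma6 (0.988), and those most like Tnfaip3 were Rbm41, Tanc1 and A730020E08Rik (0.998, 0.998 and 0.996). These genes were picked as the highest correlations among all tested genes, so their values are high by construction, and Gm16617 and A730020E08Rik were under 1 CPM on average in both treatments.

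Among other genes of the pathway, Tnip3 and N4bp1 fell. Of 43 further regulators, all tested, these 2 fell and 0 rose (median log2 ratio -0.04), and with the block 10 fell and 3 rose. The shares over all tested genes were 1.64% falling and 0.702% rising, and with the block 8.27% and 7.00%. Tnip3 and N4bp1 both belong to the 12 A20 partners and other brakes of the list, of which 10 did not pass, and with the block 3 of the 12 fell and 2 rose (Nlrc3 and Nkiras2). Tnip3, which binds A20 and belongs to the ABIN family, was at 178, 203 and 185 CPM in PH replicates 1, 3 and 4 and at 131, 149.6 and 146 CPM with PM (-0.41 ± 0.08 SE, edgeR adjusted p = 0.0303). N4bp1, a suppressor of NF-kB dependent cytokine genes, was at 163, 156 and 168 CPM with PH and at 129.9, 130.4 and 131 CPM with PM (-0.32 ± 0.06 SE, adjusted p = 0.0243). The treatments did not overlap in either gene. The number of regulators that fell was 0 without PH replicate 4, PM replicate 3 or PM replicate 4, 1 without PH replicate 1 or PH replicate 3, and 4 without PM replicate 1. It was 1 with scaling by total counts alone, where Tnip3 had adjusted p = 0.0644.

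Tnip1, the ABIN family member best known for limiting inflammation, had a log2 fold change of -0.29 ± 0.08 (SE) and did not pass (adjusted p = 0.118 by edgeR), but did with the block (1.9e-05). Of the 7 genes of the kinase complexes, 0 passed and 3 fell with the block, where 8.27% of all tested genes fell. Ikbke and Tbk1, the IKK-related kinases that also activate interferon regulatory factors, had values of -0.30 ± 0.08 and -0.20 ± 0.06 (adjusted p = 0.0971 and 0.195, and 1.9e-05 and 0.00710 with the block). Ikbkb, the catalytic subunit of the canonical IkB kinase, was at -0.18 ± 0.08, with adjusted p = 0.383, or 0.00488 with the block. Chuk and Map3k14, the kinases of the noncanonical branch, were at 0.02 ± 0.07 and 0.06 ± 0.13 and passed in neither fit (adjusted p = 0.957 and 0.901). Of the other IkB family genes, the nuclear Bcl3 and Nfkbid were at -0.11 ± 0.06 and 0.14 ± 0.09 and Nfkbil1 at 0.05 ± 0.09, and they passed in neither (adjusted p = 0.536, 0.575 and 0.873).

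Of 38 genes known as targets of NF-kB, 37 had enough counts to be tested, and the chemokine gene Ccl20 did not. Of the 37, 8 fell and 0 rose (median log2 ratio -0.34), and with the block 26 fell and 0 rose. Over all tested genes 1.64% fell and 0.702% rose, and with the block 8.27% fell and 7.00% rose. The target list holds no member, and since it was chosen with earlier results of these samples known, its direction is not independent evidence. By role, 2 of 7 cytokine genes, 0 of 6 chemokine genes, 1 of 8 survival genes, 1 of 5 surface genes, 3 of 6 genes of enzymes and secreted proteins and 1 of 5 others fell. With the block these counts were 6, 5, 4, 2, 5 and 4. The count over all roles was 4 without PH replicate 4, 3 without PM replicate 3 and 1 without PM replicate 4.

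Il6, a cytokine gene that depends on IkB-zeta in other settings, was at 577, 432 and 419 CPM in PH replicates 1, 3 and 4 and at 318, 288 and 294 CPM in the PM replicates (-0.67 ± 0.12 SE, edgeR adjusted p = 0.0245). Nos2, inducible nitric oxide synthase, was at 760.0, 594.6 and 669.5 CPM with PH and at 459.8, 359.6 and 343.6 CPM with PM (-0.80 ± 0.13, adjusted p = 0.0141). Cflar, for the caspase-8 inhibitor c-FLIP, was at 340.0, 293 and 306 CPM with PH and at 229, 246 and 232 CPM with PM (-0.41 ± 0.07, adjusted p = 0.0238). In each of the 3 genes every PM sample was lower than every PH sample. Ptgs2, cyclooxygenase-2, changed by -0.59 ± 0.12 and Marcksl1 by -0.55 ± 0.10 (adjusted p = 0.0448 and 0.0275). Il23a, Cd40 and Saa3 completed the 8, with log2 fold changes of -1.51 ± 0.18, -0.65 ± 0.09 and -1.42 ± 0.21 (SE). Their edgeR adjusted p-values were 0.00394, 0.00847 and 0.00895. Il23a was at a low level, with means of 3.32 CPM with PH and 1.14 CPM with PM and 21 to 128 counts per sample. Leaving out 1 sample ended the call of Ptgs2 for each of the 6 samples (adjusted p 0.0633 to 0.164), of Cflar for 4 (0.0562 to 0.126), of Marcksl1 for 4 (0.0512 to 0.141), of Nos2 for 3 (0.0718 to 0.0786) and of Il6 for 2 (0.110 and 0.122). Without PM replicate 4 the adjusted p was 0.0551 for Cd40 and 0.0522 for Saa3, and without the low-count filter that of Saa3 was 0.155. With the block and without id 3 that of Saa3 was 0.0622. In fits without the block, that of Ptgs2 was 0.0699 without the columns that match 2 runs and 0.0796 without id 1. With the block Ptgs2 passed without id 1, 3 or 4 (edgeR adjusted p = 1.1e-22, 5.9e-13 and 1.8e-14). The call of Il23a held in each alternative.

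Some targets passed in neither fit. The survival genes Birc2 (0.05 ± 0.10 SE) and Gadd45b (-0.02 ± 0.10), the chemokine gene Cxcl3 (-0.01 ± 0.26) and the maturation genes Cd83 (0.09 ± 0.12) and Ccr7 (-0.05 ± 0.11) were among them (edgeR adjusted p from 0.822 to 0.998). The NF-kB targets Tnf (-0.34 ± 0.25), Il1a (-0.64 ± 0.32) and Il1b (-0.53 ± 0.23) had wide errors, and replicate 1 was the highest sample of both treatments. Tnf, for instance, was at 531, 340.1 and 317 CPM in PH replicates 1, 3 and 4 and at 438, 266 and 238 CPM with PM. Within each id it was lower with PM, and with the block these 3 genes passed (adjusted p = 8.0e-07, 3.8e-12 and 4.2e-10).

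**Figure D5:**
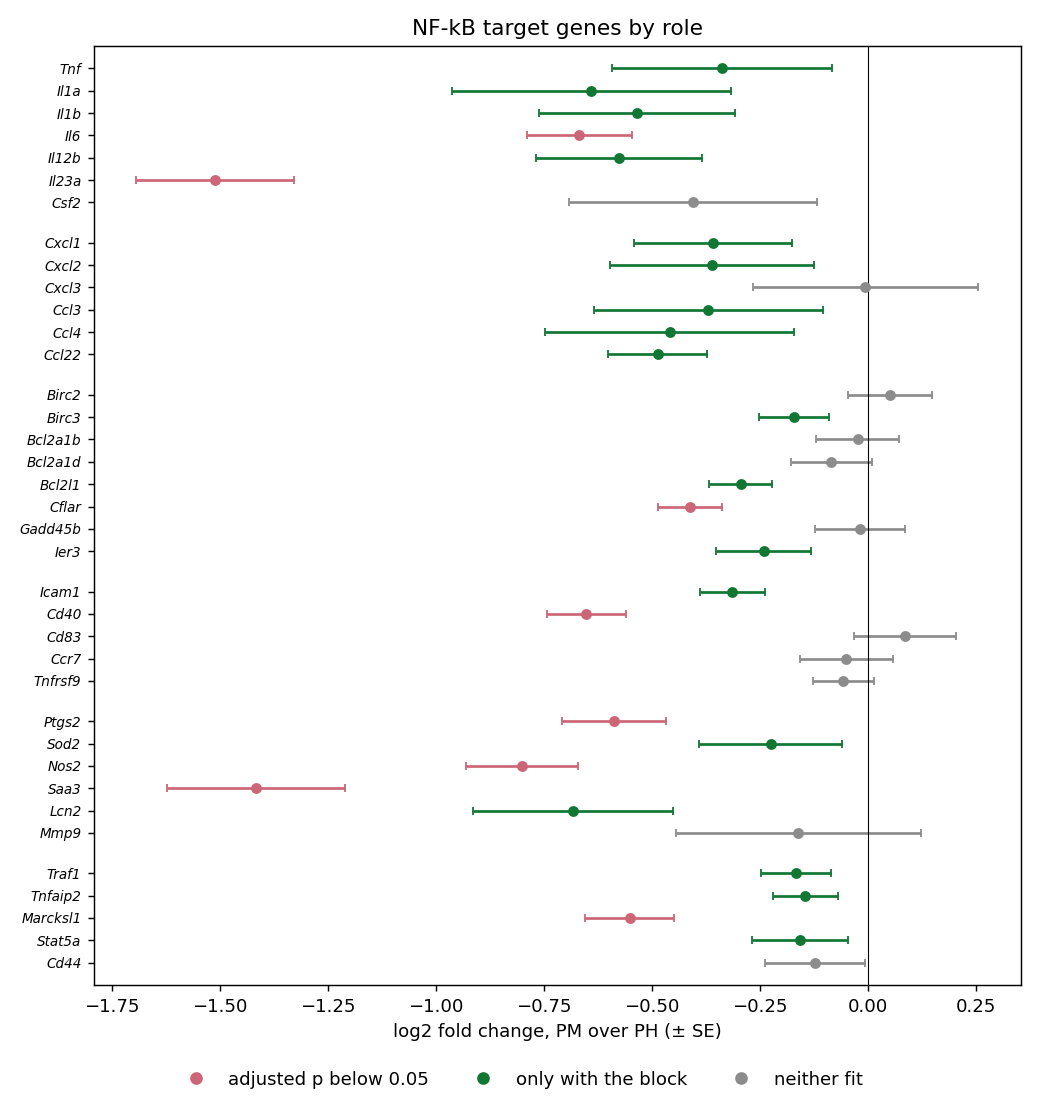
Log2 fold change of PM over PH with its SE for 37 tested NF-kB target genes, grouped from top to bottom as cytokines, chemokines, survival, surface, enzymes and secreted proteins, and others. Red points passed an adjusted p of 0.05 without the block, green points only with it, and grey points in neither. All 8 red points lie left of 0, as do all green points.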

How the data were processed

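RNA-seq read counts per gene were deposited by the authors without normalization, as whole numbers in 6 columns. The submitters' processing notes name GRCm38, STAR 2.5.3a, Trimmomatic and featureCounts 1.6.4. The sources used here give neither annotation release, strand setting nor the handling of multi-mapping reads. The series lists 8 libraries, and the column names of PM replicate 1 and PH replicate 3 each match a library of run 1 and one of run 2. The sources used here do not say whether such a column holds 1 run or both, and each was used as 1 sample. Gene coordinates and exon lengths are the deposited table's, and promoter sequences are RefSeq's.

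Genes were tested in edgeR 4.0.16 under R 4.3.3, after filterByExpr (minimum count 10), with TMM scaling, robust glmQLFit and glmQLFTest of PM against PH with no covariate. Benjamini-Hochberg adjustment covered all tested genes. The SE of a fold change derives from its F value, and 95% intervals use the test's degrees of freedom. Log2 CPM for correlations used a prior count of 2. Simulated data built from the blocked fit served as a check of the code. Its pass condition covered only the blocked fit at 2-fold changes, so it does not bear on the calls of the main fit. Samples of the same id deviated together from their treatment means, with correlations over genes of 0.44, 0.32 and 0.24 for ids 1, 3 and 4. Between different ids these correlations were -0.35 to 0.07. Deviations from a mean of 3 samples sum to 0, so positive same-id values push the different-id values down, and these are not separate evidence. The block pairs samples by their shared id. That an id is a pair rests on the same-id correlations and not on the labels, and the main fit leaves samples unpaired. Blocked values are printed beside results whose call they change and counts they move by over 1.5 times. All pairs of columns differed by more than counting noise (chi-square per degree of freedom at least 4.63).

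The members, and the lists of regulators, targets and markers, were chosen with earlier results of these data known. Named were all members, the 5 regulators and 5 targets with the smallest p, and all called genes of these lists. For each called member the 3 genes with the highest correlation were named too. Other genes in the text were chosen after their values were seen. Alternatives were the block, 2 other scalings, 2 other filters, DESeq2 1.42.0 with and without the block, and left-out samples or ids. One marker gene's own result is not reported here.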

Additional observations from a re-analysis of the deposited data

How the results depend on the processing

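Tnfaip3 passed and was lower with PM in all 18 alternatives (log2 ratio -0.61 to -0.51). Nfkbia (-0.45 to -0.36) and Nfkbiz (-0.40 to -0.31) kept their direction in all 18 and lost their calls in 5 each, all of them unpaired analyses without 1 sample. The sample-id block (pairing) added Nfkb2 and ended no call of a member, and that added call was lost without id 3 (adjusted p = 0.171) or id 4 (0.193). Scaling by total counts alone and DESeq2 size factors changed no call of a member. Of all genes, 337 passed, against 2197 with the block, 574 with DESeq2, 1237 with DESeq2 and the block, 846 without the low-count filter, 629 without the 2 columns that match 2 runs, 833 without both samples of id 1 (an alternative chosen after seeing the data), and 142 to 417 without 1 sample. With the block and without id 1, 3 or 4 the counts were 2145, 1580 and 1529. Members that passed numbered 1 to 3 without 1 sample. The 2 regulators became 13 with the block, 4 with DESeq2, 7 with DESeq2 and the block, 4 without the filter, 1 with total counts alone, 6 without the 2-run columns, 6 without id 1 and 0 to 4 without 1 sample, and with the block and without id 1, 3 or 4 they were 12, 7 and 6. The 8 targets became 26 with the block, 26 with DESeq2 and the block, 20 without id 1 and 1 to 8 without 1 sample, and with the block and without id 1, 3 or 4 they were 27, 21 and 24. Without the 2-run columns PH holds ids 1 and 4 and PM holds ids 3 and 4, so those counts mix treatment with id. The cause of these shifts was not tested.

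Of the members that did not pass, 4 changed sign around 0, with no call. Without 1 sample the log2 ratio ranged from -0.0063 to 0.041 for Rela, -0.11 to 0.13 for Relb, -0.088 to 0.15 for Rel and -0.043 to 0.065 for Nfkbib. Without the 2-run columns, where treatment and id are mixed, Relb was at 0.23 and Rel at 0.21, their highest values, and neither passed. With the block, Rela was at -0.0127 without id 1 and -0.0128 without id 3, Relb at -0.0051 without id 1, Rel at -0.048 without id 3 and -0.031 without id 4, and Nfkbib at -0.028 without id 1. Without both samples of id 1, Rela was at -0.0082, Relb at -0.0045 and Nfkbib at -0.023, and Rel was at -0.0021 in DESeq2 with the block.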

Other observations

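Sample id 1 stood apart in both treatments for many NF-kB targets, a pattern looked for after the values were seen. It was the highest sample of both PH and PM in 18 of 37 tested targets (48.6%), among them Tnf, Il1a, Il1b, Il6, Cxcl1, Cxcl2, Ccl3 and Ccl4, and the lowest of both in 11 (29.7%), among them Il12b, Ccl22, Cd83 and Ccr7. Over all 14382 tested genes these shares were 24.3% and 23.5%, and over the 43 regulators they were close to that, 25.6% and 23.3%. Of the 10 members, id 1 was highest in both treatments for Nfkbia, Nfkbie and Nfkbiz and lowest in both for Nfkb2, Relb and Rel. These shares were not tested, and PM replicate 1 is also one of the 2 columns that match a pair of runs.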
